A study of Arabidopsis thaliana with 36 samples.

Results

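The 10 genes described here belong to the xyloglucan endotransglucosylase/hydrolase (XTH) family and were followed across 12 groups of Arabidopsis thaliana seedlings. They are XTH15, XTH16, XTH17, XTH18, XTH19, XTH22, XTH23, XTH24, XTH31 and XTH33, taken by their gene identifiers from a table of 32833 genes. All 10 of these genes passed the filter on low counts and are among the 21562 genes tested. The libraries were made from RNA of whole 7-day-old seedlings of 4 genotypes: hy5 pif457, pif457, hy5 and the wild type (WT, Col-0). The mutant labels name no alleles. Seedlings grew in continuous white light and were harvested before and after 1 and 8 h of simulated shade, white light with added far-red light, with 3 biological replicates in each of the 12 groups. No group stayed in white light until 1 or 8 h, so shade and elapsed time cannot be told apart. HY5 is a transcription factor that promotes development in light, and PIF4, PIF5 and PIF7, the factors lost in pif457, promote elongation in shade.

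Xyloglucan is a polymer that lies between the cellulose microfibrils of the plant cell wall. XTH enzymes cut xyloglucan chains and either rejoin them to other chains or hydrolyse them, and so remodel the wall of growing cells. Plants in shade elongate their stems and leaf stalks, and XTH15, XTH16, XTH17 and XTH19 are known from Arabidopsis leaf stalks as genes that respond to shade. From general knowledge, XTH17, XTH18, XTH19 and XTH31 are typical of root, whereas XTH15, XTH16, XTH22, XTH23, XTH24 and XTH33 are expressed in the shoot or in several tissues.

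XTH24, XTH18 and XTH19 lie in a row on chromosome 4, where a gap of 5161 bases separates XTH24 from XTH18 and 1500 bases separate XTH18 from XTH19 (RefSeq annotation of TAIR10.1, all on the minus strand). Coding sequences of XTH18 and XTH19 were 87.4% identical, those of XTH17 and XTH18 85.6%, those of XTH15 and XTH16 80.5% and those of XTH22 and XTH23 79.2%. All 10 genes could nevertheless be told apart by most short reads. The share of 50-base stretches of the transcript found in another gene was 0.171% for XTH17, 1.57% for XTH18 and 1.63% for XTH19, and 0 for XTH16, XTH22, XTH23, XTH24, XTH31 and XTH33. XTH15 was the exception, with 28.8% of its stretches shared with AT4G14120, a gene of the opposite strand that overlaps its 3′ end. AT4G14120 itself had 101 to 122 counts per WT library at 8 h and 84 to 105 at 0 h. These are expected counts from RSEM, and the strand setting is not given. How reads of the shared stretch were divided between both genes is therefore not known.

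The promoters of 5 genes are shown for the largest differences in shade response between hy5 pif457 and WT at 8 h (XTH15, XTH17, XTH19 and XTH33) and for the neighbour of XTH19, XTH18. Each run is 300 bases in RefSeq TAIR10.1, from 250 bases before the annotated transcript start to 50 after it, read 5′ to 3′ on the strand of the gene. Both strands were searched. The G-box, spelled CACGTG, and the PBE-box, spelled CATGTG, are motifs bound by PIF factors. The other strand of the PBE-box reads CACATG. The core ACGT, which also lies within the G-box, is bound by HY5. Capitals mark PBE-box matches.
XTH15 (chr4:8138343-8138642, minus strand): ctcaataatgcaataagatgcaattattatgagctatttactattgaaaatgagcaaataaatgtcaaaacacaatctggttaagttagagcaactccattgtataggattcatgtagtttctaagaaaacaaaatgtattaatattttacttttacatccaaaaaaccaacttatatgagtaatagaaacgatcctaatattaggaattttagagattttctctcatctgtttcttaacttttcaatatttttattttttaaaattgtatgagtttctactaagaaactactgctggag
XTH17 (chr1:24256804-24257103, plus strand): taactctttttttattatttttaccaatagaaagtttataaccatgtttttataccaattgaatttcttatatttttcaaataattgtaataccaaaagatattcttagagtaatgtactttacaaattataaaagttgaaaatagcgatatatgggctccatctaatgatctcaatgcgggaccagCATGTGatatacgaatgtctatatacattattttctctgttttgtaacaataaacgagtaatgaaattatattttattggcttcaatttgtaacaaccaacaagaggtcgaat
XTH18 (chr4:14827162-14827461, minus strand): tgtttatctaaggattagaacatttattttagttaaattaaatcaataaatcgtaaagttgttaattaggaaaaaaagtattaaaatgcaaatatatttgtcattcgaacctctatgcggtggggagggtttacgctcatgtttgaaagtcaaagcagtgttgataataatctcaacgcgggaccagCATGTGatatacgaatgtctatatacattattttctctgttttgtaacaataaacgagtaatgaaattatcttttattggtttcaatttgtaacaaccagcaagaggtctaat
XTH19 (chr4:14830175-14830474, minus strand): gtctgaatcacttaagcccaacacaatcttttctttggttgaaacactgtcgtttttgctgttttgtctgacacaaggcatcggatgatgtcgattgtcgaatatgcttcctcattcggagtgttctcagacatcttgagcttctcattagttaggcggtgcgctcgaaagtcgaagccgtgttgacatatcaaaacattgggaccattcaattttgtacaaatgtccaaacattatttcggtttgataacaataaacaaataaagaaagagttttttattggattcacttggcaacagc
XTH33 (chr1:3480992-3481291, minus strand): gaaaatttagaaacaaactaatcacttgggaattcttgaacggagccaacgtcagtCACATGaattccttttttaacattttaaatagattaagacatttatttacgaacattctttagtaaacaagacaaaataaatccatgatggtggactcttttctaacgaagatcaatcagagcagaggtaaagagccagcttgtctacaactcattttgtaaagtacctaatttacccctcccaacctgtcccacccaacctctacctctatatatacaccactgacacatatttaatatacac
XTH17 and XTH18 each held 1 PBE-box, which began 63 bases before the start in both genes, and XTH33 held 1 that began 194 bases before the start. The other 7 genes had no PBE-box in this window, and none of the 10 had a G-box there or within 1000 bases before the start. Of 27443 promoters of the same length, 12.9% held a PBE-box, 7.68% a G-box and 49.9% the ACGT core. Within 1000 bases before the start, 14.8% of promoters held a G-box and 37.7% a PBE-box. In that longer window XTH16, XTH17, XTH18, XTH19, XTH31 and XTH33 held a PBE-box. Among the 10 genes only XTH33 held an ACGT core in the 300-base window, which began 202 bases before its start. Within 1000 bases before the start, all of the 10 but XTH23 held an ACGT core, as did 85.0% of promoters. These matches describe the letters of the window and are not evidence of binding.

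Library totals ran from 30846115 to 58025421 counts. HY5 transcripts were lower in hy5 (-1.84 ± 0.14) and hy5 pif457 (-1.81 ± 0.14) than in WT at 0 h (log2 fold change ± SE). PIF5 and PIF7 were lower in pif457 and in hy5 pif457 than in WT at every time, from -4.94 to -2.22. PIF4 transcripts were present in all groups. Against WT at 0 h PIF4 was not called in hy5 pif457 (0.21, edgeR adjusted p = 0.564) or pif457 (-0.31, adjusted p = 0.849), and at 8 h it was lower in hy5 pif457 (-0.59, adjusted p = 0.039) and pif457 (-0.99, adjusted p = 0.00193). Markers of green tissue were high in all libraries, with a summed level of 41020 to 92400 CPM (counts relative to the TMM-scaled library size) over 7 genes. Root markers were present in all groups and far more uneven, from 8.87 to 552 CPM summed over 20 genes, with 2 of the 20 at 0 in a WT library at 8 h. The mean log2 CPM of these 20 markers is called the root score of a library. In these bulk samples fewer cells of a type and less RNA per cell cannot be told apart. All 9 libraries of hy5 pif457 and the 3 of pif457 at 8 h also stood apart by their share of ribosomal RNA counts, 6.01% to 11.6% against 0.467% to 2.63% in the other 24 libraries. This share cannot be told apart from the hy5 pif457 genotype, nor in pif457 from 8 h against the earlier times. Without those 12 libraries, all 23 calls for the 10 genes that could still be tested were kept. None of those comparisons holds a library rich in ribosomal RNA, so this does not check the calls that do.

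In WT XTH15, XTH33 and XTH17 rose most after 8 h of shade. XTH33 was already higher at 1 h, and its 8 h level was not called different from that at 1 h (0.82 ± 0.51, edgeR adjusted p = 0.344; 1.93 and adjusted p = 0.0173 with the root score as a covariate). For XTH15 the difference between those times was 3.74 ± 0.36 (edgeR adjusted p = 6.53e-08). After 8 h of shade 4 genes were higher than at 0 h (XTH15, XTH16, XTH17 and XTH33) and XTH31 was lower. These are 5 of the 10 genes, against 19.2% of all genes called in this comparison (edgeR quasi-likelihood test, adjusted p under 0.05). After 1 h 2 of the 10 were called, XTH22 and XTH33, both higher, against 5.2% of all genes. The median log2 fold change of the 10 genes was 0.68 at 8 h and 0.77 at 1 h, against -0.03 and 0.02 for all genes tested. The 20 root markers had a median of -1.06 at 8 h and 0.90 at 1 h in WT with none called, and their part in the medians of the 10 genes was not tested. Between the shade times themselves 3 of 10 were called in WT (8.16% of all genes), with XTH15 higher and XTH22 and XTH31 lower at 8 h than at 1 h.

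In hy5 XTH15, XTH17, XTH22 and XTH33 were higher and XTH31 lower at 1 h than at 0 h, 5 of 10 against 6.77% of all genes, and XTH15, XTH17 and XTH33 were higher and XTH31 lower at 8 h, 4 of 10 against 9.27%. None of the 10 responses differed between hy5 and WT at 1 h, where the test called 0.0% of all genes, or at 8 h, where it called 1.53%. At an unadjusted p under 0.05, 2 of the 10 response differences passed at 1 h, XTH15 and XTH31, and 0 at 8 h. The shares of 0.0% and 1.53% are those at the adjusted threshold. That of all genes at the unadjusted p is not given here, so these 2 cannot be set against it. Between 8 h and 1 h in hy5 2 of 10 were called (7.17% of all genes), XTH15 higher and XTH22 lower.

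In hy5 pif457 and pif457 no early change was called. No gene of the 10 was called at 1 h in pif457 (0.227% of all genes) or in hy5 pif457 (0.181%). At 8 h 5 of 10 were called in pif457, all higher than at 0 h (9.94% of all genes): XTH15, XTH17, XTH18, XTH19 and XTH33. None of these 5 calls was kept without pif457 replicate 3 at 8 h, with the root score as a covariate or with the groups fitted alone. The share of ribosomal RNA counts was high in pif457 only at 8 h, so it cannot be told apart from these responses. In hy5 pif457 3 of 10 were called at 8 h, all lower (10.9% of all genes): XTH19, XTH23 and XTH31. None of these 3 was kept with the root score as a covariate, DESeq2 added XTH18 and XTH24 as lower, and with the groups fitted alone 9 of 10 were called, with XTH16 higher and the others lower. Against WT at 8 h, 6 of 10 were called in hy5 pif457, all lower (18.7% of all genes), namely XTH15, XTH17, XTH19, XTH22, XTH23 and XTH33. In pif457 at that time XTH15 and XTH22 were lower than in WT and XTH31 was higher, 3 of 10 against 11.3%. The shade response at 8 h was lower than that of WT for 5 genes in hy5 pif457 (XTH15, XTH17, XTH19, XTH23 and XTH33, 13.7% of all genes called). For XTH15 the response was 0.23 in hy5 pif457 and 4.41 in WT. For XTH17 it was -1.05 in hy5 pif457 and 2.29 in WT, and for XTH33 -1.16 in hy5 pif457 and 3.02 in WT, with the WT values called and those of hy5 pif457 not. For XTH19 it was -1.89 in hy5 pif457 and 1.27 in WT, and for XTH23 -1.58 in hy5 pif457 and 0.33 in WT, with the hy5 pif457 values called and those of WT not. In pif457 the response differed for 2 genes (2.92%), smaller for XTH15 and less negative for XTH31. At 1 h no response difference was called for the 10 genes in pif457 (0.872% of all genes) or hy5 pif457 (0.969%). The heat map of log2 fold changes shows these comparisons side by side.

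XTH15 (AT4G14130, 3 exons at chr4:8137020-8138392) encodes an enzyme of shoot tissue known as XTR7. In WT its 3 libraries held 6.72, 10.4 and 7.26 CPM at 0 h, 10.02, 15.4 and 13.5 CPM at 1 h, and 166, 179 and 174 CPM at 8 h. The 8 h libraries of WT stood far above all others of that genotype, and 1 h overlapped with 0 h. In hy5 the levels were 8.88, 6.01 and 9.84 CPM at 0 h, 30.7, 28.8 and 25.1 CPM at 1 h, and 90.0, 347 and 100 CPM at 8 h. The 3 times did not overlap in hy5, and replicate 2 at 8 h was far above the other 2 libraries. Against 0 h the gene rose in hy5 by 1.77 ± 0.34 at 1 h (edgeR adjusted p = 0.00102) and 4.44 ± 0.38 at 8 h (adjusted p = 4.47e-09). At 1 h the hy5 libraries lay above those of WT, but the difference of 1.12 ± 0.34 missed the threshold (edgeR adjusted p = 0.0538) and passed it with DESeq2 (1.10, adjusted p = 0.0212). At 8 h hy5 against WT gave 0.05 ± 0.32 (edgeR adjusted p = 0.952), a value set by 1 library: without hy5 replicate 2 the difference was -0.91 ± 0.23 and was called (adjusted p = 0.0303).

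The late increase of XTH15 was largely missing in both genotypes that lack the PIF factors. In hy5 pif457 the libraries held 9.35, 11.4 and 11.6 CPM at 0 h, 12.01, 13.6 and 13.55 CPM at 1 h, and 13.8, 12.95 and 11.3 CPM at 8 h. In pif457 they held 10.6, 5.51 and 5.72 CPM at 0 h, 12.6, 8.43 and 8.415 CPM at 1 h, and 14.5, 13.6 and 19.8 CPM at 8 h. All 8 h libraries of both genotypes were below all 8 h libraries of hy5 and WT. Against WT at 8 h the log2 fold change was -3.77 ± 0.36 in hy5 pif457 (edgeR adjusted p = 4.37e-08) and -3.44 ± 0.36 in pif457 (adjusted p = 1.89e-07). The response differed from that of WT by -4.18 ± 0.49 in hy5 pif457 (edgeR adjusted p = 4.35e-06) and -3.28 ± 0.49 in pif457 (adjusted p = 0.000309), and both calls were kept with each library left out. Its own response in pif457 was 1.13 ± 0.34 (edgeR adjusted p = 0.0365). That call was lost without pif457 replicate 2 at 0 h (0.97), replicate 3 at 0 h (0.95), replicate 2 at 8 h (1.19) or replicate 3 at 8 h (0.95), with adjusted p from 0.0523 to 0.204. It was also lost without the filter on low counts (adjusted p = 0.0502) and with the root score as a covariate (0.91, adjusted p = 0.149). Between hy5 pif457 and pif457 at 8 h the difference was -0.33 ± 0.34 (edgeR adjusted p = 0.486).

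XTH33 (AT1G10550, chr1:3479066-3481041) encodes a family member with a predicted membrane anchor. It was the least abundant of the 10 in WT at 0 h, at 0.712 CPM per kilobase of transcript. Its WT libraries held 1.04, 0.797 and 0.738 CPM at 0 h, 3.41, 3.59 and 4.94 CPM at 1 h, and 6.43, 6.34 and 8.27 CPM at 8 h. No WT library of one time overlapped with another time. The gene rose in WT by 2.20 ± 0.56 at 1 h (edgeR adjusted p = 0.0173) and 3.02 ± 0.57 at 8 h (adjusted p = 0.000389). The 1 h call was lost without WT replicate 1 at 0 h (2.37, adjusted p = 0.0598), replicate 3 at 0 h (2.11, adjusted p = 0.103) or replicate 3 at 1 h (2.00, adjusted p = 0.0677). In hy5 the libraries held 0.997, 0.614 and 2.29 CPM at 0 h, 8.78, 6.51 and 9.999 CPM at 1 h, and 5.105, 18.7 and 6.07 CPM at 8 h. Replicate 2 of hy5 at 8 h was again the highest. The hy5 responses were 2.68 ± 0.54 at 1 h (edgeR adjusted p = 0.00169) and 2.92 ± 0.55 at 8 h (adjusted p = 0.000647), the second missing the threshold when the groups were fitted alone (2.91, adjusted p = 0.0671).

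In hy5 pif457 XTH33 stayed low, with 1.225, 1.79 and 2.03 CPM at 0 h, 1.58, 2.78 and 2.51 CPM at 1 h, and 1.13, 0.645 and 0.4785 CPM at 8 h. Its 8 h libraries were below its own 0 h libraries. Against WT at 8 h the log2 fold change was -3.22 ± 0.58 (edgeR adjusted p = 0.000309), and the response differed from that of WT by -4.18 ± 0.81 (adjusted p = 0.00134). In pif457 XTH33 was spread widely at 8 h, with 0.965, 0.235 and 0.460 CPM at 0 h, 1.44, 1.21 and 1.38 CPM at 1 h, and 0.7315, 1.74 and 5.16 CPM at 8 h. The 8 h libraries of pif457 overlapped with both earlier times. Its called response of 2.19 ± 0.58 (edgeR adjusted p = 0.0187) was 1.15 without replicate 3 at 8 h (adjusted p = 0.316), and was also lost without replicate 2 (1.83) or replicate 3 (2.02) at 0 h, and with the root score as a covariate (1.40, adjusted p = 0.149). The pif457 response at 8 h was not called different from that of WT (-0.83 ± 0.80, edgeR adjusted p = 0.664). All 8 h libraries of pif457 lay below those of WT, a difference of -1.46 ± 0.52 that did not pass (edgeR adjusted p = 0.0673). It was called with DESeq2 (-1.48, adjusted p = 0.037) and without pif457 replicate 3 (-2.50, adjusted p = 0.00619).

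**Figure D1:**
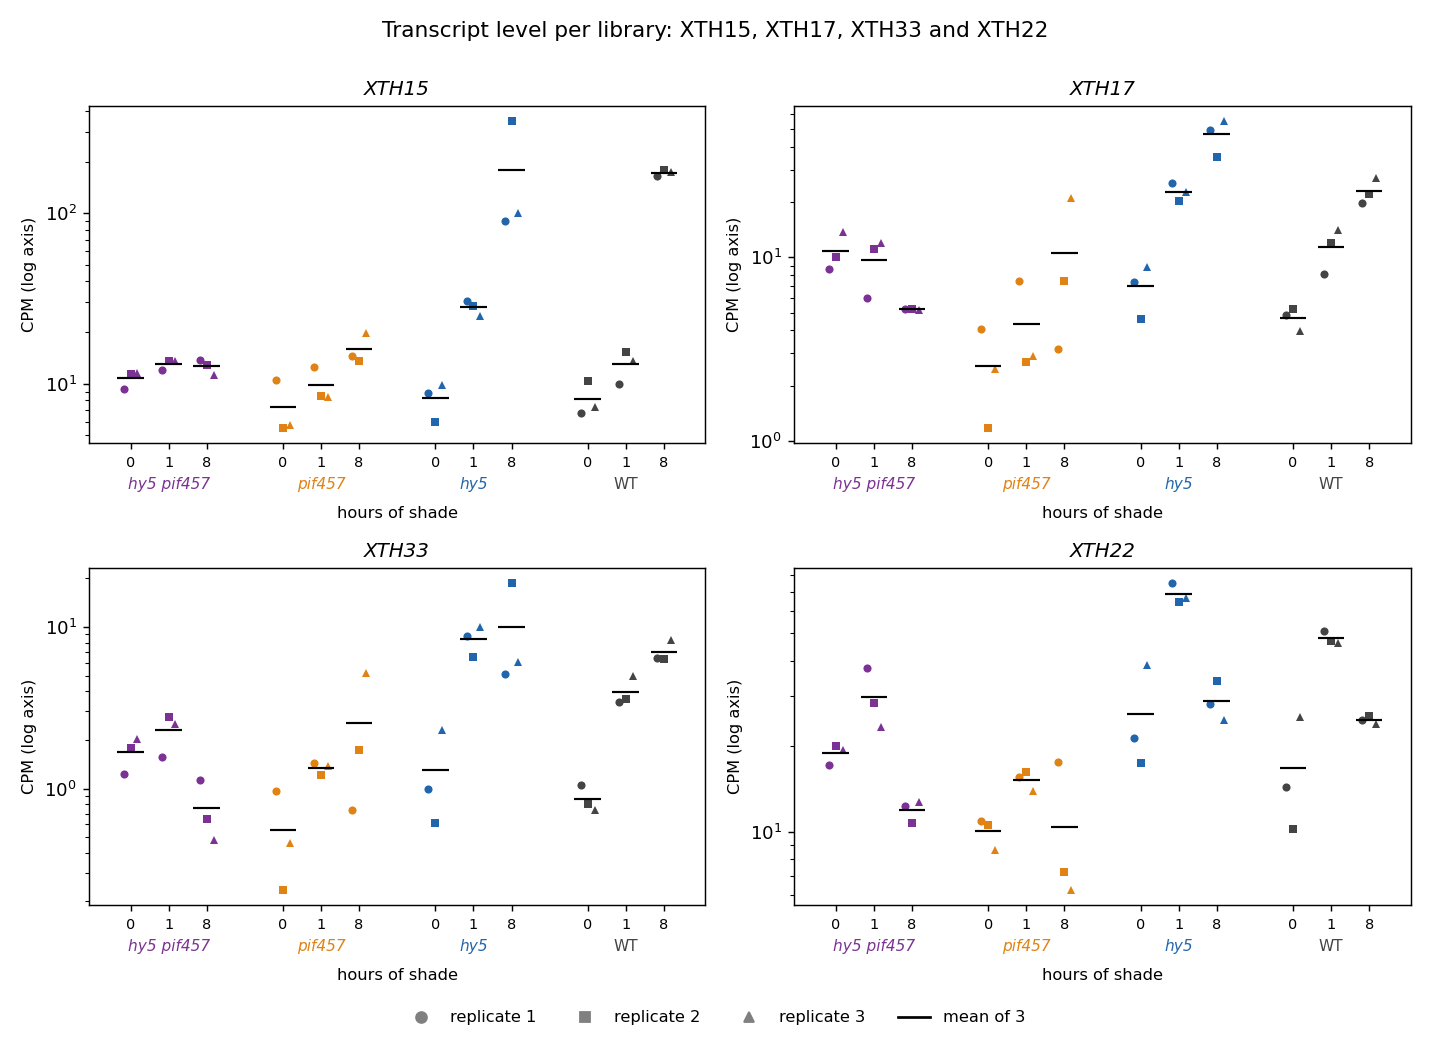
CPM on a log axis in each library of XTH15, XTH17, XTH33 and XTH22, by genotype and hours of shade (points: replicates; lines: means of 3). XTH15 at 8 h lies between 90.0 and 347 CPM in hy5 and WT, and between 11.3 and 19.8 CPM in hy5 pif457 and pif457.

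XTH22 (AT5G57560, chr5:23307006-23308680), known as TCH4, responds to touch and to brassinosteroid and auxin. It alone of the 10 was called higher at 1 h than at both 0 h and 8 h, in WT and in hy5. The group means of XTH18 and XTH23 were also highest at 1 h in WT and in hy5. In WT XTH22 held 14.4, 10.3 and 25.5 CPM at 0 h, 51.1, 47.1 and 46.2 CPM at 1 h, and 24.7, 25.6 and 24.01 CPM at 8 h. All 1 h libraries of WT were above those of the other times, and 0 h overlapped with 8 h. The rise at 1 h was 1.53 ± 0.30 in WT (edgeR adjusted p = 0.00159), and it missed the threshold when the 2 groups were fitted alone (1.51, adjusted p = 0.0741). In hy5 the libraries held 21.35, 17.55 and 38.8 CPM at 0 h, 75.1, 64.3 and 66.6 CPM at 1 h, and 28.1, 34.0 and 24.9 CPM at 8 h. The order of times in hy5 was that of WT, with a rise at 1 h of 1.40 ± 0.30 (edgeR adjusted p = 0.00243). Lower levels at 8 h than at 1 h were called in WT (-0.96 ± 0.29, edgeR adjusted p = 0.0414), in hy5 (-1.24 ± 0.29, adjusted p = 0.00763) and for hy5 pif457 (-1.33 ± 0.30, adjusted p = 0.0151). The WT call was lost with any 1 of its 6 libraries left out (adjusted p from 0.077 to 0.158) or without the filter on low counts (-0.93, adjusted p = 0.0587), that of hy5 without replicate 3 at 8 h (-1.15, adjusted p = 0.0577) and that of hy5 pif457 without replicate 1 or 2 at 1 h or replicate 1 or 3 at 8 h (-1.35 to -1.08, adjusted p from 0.0573 to 0.0817).

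In pif457 XTH22 held 10.9, 10.6 and 8.63 CPM at 0 h, 15.6, 16.3 and 13.9 CPM at 1 h, and 17.7, 7.23 and 6.24 CPM at 8 h. Its 1 h libraries in pif457 all lay above those of 0 h, without a call. All 1 h libraries of pif457 were below all 1 h libraries of WT (-1.66 ± 0.30, edgeR adjusted p = 0.000618). In hy5 pif457 it held 17.2, 20.1 and 19.4 CPM at 0 h, 37.7, 28.45 and 23.5 CPM at 1 h, and 12.4, 10.7 and 12.7 CPM at 8 h. The difference between the pif457 and WT responses at 1 h was -0.93 ± 0.42 and that between hy5 pif457 and WT was -0.87 ± 0.42, and neither passed (edgeR adjusted p = 1.0 and adjusted p = 0.544). At 8 h the gene was lower than in WT in pif457 (-1.26 ± 0.30, edgeR adjusted p = 0.00857), as it was for hy5 pif457 (-1.06 ± 0.30, adjusted p = 0.0161). The pif457 call was lost without its replicate 3 at 8 h (-0.99, adjusted p = 0.0851), with the root score as a covariate (-1.01, adjusted p = 0.0957) or with the groups fitted alone (-1.26, adjusted p = 0.269), and that of hy5 pif457 without WT replicate 3 (-1.09) or hy5 pif457 replicate 1 (-1.11) or 3 (-1.13) at 8 h, with adjusted p from 0.0515 to 0.0549. Against hy5, hy5 pif457 was lower at 1 h (-1.20 ± 0.29, edgeR adjusted p = 0.0131) and 8 h (-1.28 ± 0.30, adjusted p = 0.00409). The call against hy5 at 1 h was lost without hy5 replicate 1 (-1.13) or 3 (-1.20), or hy5 pif457 replicate 2 (-1.15) or 3 (-1.03), at 1 h, with adjusted p from 0.05 to 0.125. Its response at 8 h in hy5 pif457 differed from that of WT by -1.23 ± 0.42, just outside the threshold with edgeR (adjusted p = 0.0504) and inside it with DESeq2 (-1.18, adjusted p = 0.0387).

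XTH23 (AT4G25810, chr4:13128394-13129927), the closest relative of XTH22 among the 10, was scarce. Its group means ran from 1.01 CPM in hy5 pif457 at 8 h to 5.58 CPM in hy5 at 1 h. In hy5 pif457 the libraries held 2.10, 2.37 and 4.54 CPM at 0 h, 4.23, 3.09 and 3.34 CPM at 1 h, and 0.828, 1.07 and 1.12 CPM at 8 h. At 8 h these libraries, with 27, 40 and 35 counts, were the lowest of all 36. WT at 8 h held 3.60, 2.56 and 2.89 CPM. XTH23 was lower in hy5 pif457 than in WT at 8 h (-1.58 ± 0.36, edgeR adjusted p = 0.00363), and its response differed by -1.91 ± 0.50 (adjusted p = 0.0139). The call on the response was lost without hy5 pif457 replicate 3 at 0 h (-1.46, adjusted p = 0.0685). Against its own 0 h it was lower by -1.58 ± 0.37 (edgeR adjusted p = 0.00822), a call lost without hy5 pif457 replicate 3 at 0 h (-1.115, adjusted p = 0.0858) or replicate 1 at 8 h (-1.42, adjusted p = 0.0565), or with the root score as a covariate (-1.24, adjusted p = 0.0531). No call was made in WT, where it stood at 3.23, 5.17 and 4.63 CPM at 1 h and 2.445, 2.39 and 2.36 CPM at 0 h (0.86 ± 0.34, edgeR adjusted p = 0.144). In hy5 the 1 h response was called without hy5 replicate 3 at 0 h (1.65, adjusted p = 0.000382, against 0.83 and adjusted p = 0.14 with it), as was that at 8 h (1.22, adjusted p = 0.00716, against 0.37 and adjusted p = 0.553).

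XTH24 (AT4G30270, chr4:14819192-14820595), known as MERI5 and expressed in meristems and young organs, was higher in hy5 pif457 than in pif457 and WT before shade. At 0 h it held 141, 158 and 235 CPM in hy5 pif457, 86.9, 43.7 and 31.7 CPM in pif457, 92.1, 77.1 and 138 CPM in hy5, and 40.4, 89.3 and 35.7 CPM in WT. All hy5 pif457 libraries were above those of pif457, hy5 and WT at that time. The log2 fold change against hy5 was not called at 0 h (0.80 ± 0.36, edgeR adjusted p = 0.392), and that against WT was 1.69 ± 0.37 (adjusted p = 0.00519). This was 1 of 10 genes called between hy5 pif457 and WT at 0 h (8.94% of all genes), and it was lost without WT replicate 3 (1.46, adjusted p = 0.0542) or hy5 pif457 replicate 3 (1.40, adjusted p = 0.0581) at 0 h. At 1 h the libraries held 210, 152 and 141 CPM in hy5 pif457, against 37.4, 37.3 and 66.8 CPM in WT (1.83 ± 0.37, edgeR adjusted p = 0.00169). Here 2 of 10 genes were called (7.57% of all genes), with XTH31 the other. At 8 h the levels were 86.8, 82.3 and 97.9 CPM in hy5 pif457, against 79.7, 66.7 and 86.3 CPM in WT, which overlapped (0.20 ± 0.36, edgeR adjusted p = 0.744). The response difference at 8 h, -1.49 ± 0.51, lay just outside the threshold (edgeR adjusted p = 0.0513) and inside it with DESeq2 (-1.45, adjusted p = 0.0313). No gene of the 10 was called between pif457 and WT (0.0835% of all genes) or between hy5 and WT (9.49%) at 0 h. In hy5 at 0 h XTH24 gave 0.89 ± 0.36 against WT (edgeR adjusted p = 0.117), and 1.43 without WT replicate 2 (adjusted p = 0.0161). XTH31 in hy5 lay below WT at 0 h with no overlap (-0.58 ± 0.21, edgeR adjusted p = 0.0824), and was called with DESeq2 (-0.60, adjusted p = 0.0451), with the root score as a covariate (-0.64, adjusted p = 0.0127) and with the groups fitted alone (-0.61, adjusted p = 0.0335).

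XTH16 (AT3G23730, chr3:8550037-8551403), the closest relative of XTH15 among the 10, moved little. Its group means ran from 34.8 CPM in hy5 pif457 at 0 h to 63.1 CPM in WT at 8 h. In WT it held 56.4, 61.6 and 71.4 CPM at 8 h, against 33.4, 41.3 and 34.9 CPM at 0 h. The times did not overlap, and the rise was 0.79 ± 0.24 (edgeR adjusted p = 0.0228). It was lost without WT replicate 1 at 0 h (0.73), replicate 3 at 0 h (0.76) or replicate 3 at 8 h (0.69), with adjusted p from 0.0828 to 0.123. In 32 other comparisons XTH16 was not called. All 8 h libraries of hy5 pif457 and pif457 lay below those of WT at 8 h. These differences missed the threshold in hy5 pif457 (-0.65, edgeR adjusted p = 0.0588) and pif457 (-0.70, adjusted p = 0.0613). With DESeq2 both were called (-0.64, adjusted p = 0.0468, and -0.70, adjusted p = 0.04).

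XTH17 (AT1G65310, chr1:24257054-24258506) is a gene of root elongation that is also known to respond to shade in leaf stalks. In WT its libraries held 4.86, 5.25 and 3.96 CPM at 0 h, 8.14, 11.97 and 14.0 CPM at 1 h, and 19.7, 22.0 and 27.1 CPM at 8 h. In hy5 they held 7.30, 4.62 and 8.88 CPM at 0 h, 25.5, 20.15 and 22.7 CPM at 1 h, and 49.6, 35.3 and 55.2 CPM at 8 h. The 3 times did not overlap in either genotype. Against 0 h the rise at 8 h was 2.29 ± 0.47 in WT (edgeR adjusted p = 0.000944) and 2.75 ± 0.46 in hy5 (adjusted p = 0.000189). At 1 h it was 1.28 ± 0.46 in WT (edgeR adjusted p = 0.102, and 0.0392 when the groups were fitted alone) and 1.71 ± 0.45 in hy5 (adjusted p = 0.0182). The hy5 call at 1 h was lost without hy5 replicate 1 (1.75) or 2 (1.46) at 0 h or replicate 1 at 1 h (1.62), with adjusted p from 0.0598 to 0.0971. All 8 h libraries of hy5 were above those of WT, a difference of 1.03 ± 0.43 that did not pass (edgeR adjusted p = 0.192).

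In hy5 pif457 XTH17 held 8.68, 10.01 and 13.7 CPM at 0 h, 5.97, 11.1 and 11.97 CPM at 1 h, and 5.21, 5.24 and 5.17 CPM at 8 h. No change was called against 0 h at 1 h (-0.16 ± 0.45, edgeR adjusted p = 1.0) or at 8 h (-1.05 ± 0.46, adjusted p = 0.127; -1.003 and adjusted p = 0.0013 with the groups fitted alone). It was lower than in WT at 8 h by -2.14 ± 0.46 (edgeR adjusted p = 0.00214) and lower than in hy5 by -3.17 ± 0.48 (adjusted p = 4.2e-05). The response differed from that of WT by -3.34 ± 0.65 (edgeR adjusted p = 0.00153), and this call was kept with each library left out. At 0 h it was higher in hy5 pif457 than in pif457, which held 4.06, 1.175 and 2.45 CPM (2.07 ± 0.48, edgeR adjusted p = 0.00967). That difference was lost without pif457 replicate 2 (1.73, adjusted p = 0.0802) or hy5 pif457 replicate 3 (1.82, adjusted p = 0.0635) at 0 h.

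XTH18 (AT4G30280, chr4:14825757-14827211) and XTH19 (AT4G30290, chr4:14828712-14830224) are the tandem pair, both known from root tissue. XTH18 in WT held 3.62, 4.54 and 2.89 CPM at 0 h, 4.20, 13.4 and 9.81 CPM at 1 h, and 5.68, 5.22 and 5.38 CPM at 8 h. It was not called in WT at 1 h (1.31 ± 0.52, edgeR adjusted p = 0.142) or at 8 h (0.56 ± 0.52, adjusted p = 0.497). The highest group mean of XTH18 was that of hy5 at 1 h, with libraries of 22.4, 18.2 and 18.65 CPM, against 6.35, 4.14 and 10.8 CPM at 0 h. These did not overlap, but the difference of 1.47 ± 0.51 did not pass with edgeR (adjusted p = 0.0792) and passed with DESeq2 (1.46, adjusted p = 0.0441). XTH19 in WT held 8.15, 4.95 and 4.87 CPM at 0 h, 4.64, 8.63 and 8.46 CPM at 1 h, and 16.7, 13.0 and 13.8 CPM at 8 h. Its 8 h libraries in WT were above those of 0 h without a call (1.27 ± 0.55, edgeR adjusted p = 0.104), and were called without the 12 libraries rich in ribosomal RNA (1.25, adjusted p = 0.019).

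In hy5 pif457 XTH19 held 12.1, 14.0 and 19.5 CPM at 0 h, 8.33, 16.35 and 14.0 CPM at 1 h, and 4.11, 5.45 and 2.68 CPM at 8 h. The 8 h libraries were below those of both earlier times (-1.89 ± 0.56 against 0 h, edgeR adjusted p = 0.0324) and below those of WT at 8 h (-1.83 ± 0.56, adjusted p = 0.0248). Each of these calls was lost with any 1 of 4 libraries left out. Against 0 h these were hy5 pif457 replicates 2 and 3 at 0 h and 1 and 3 at 8 h (-1.91 to -1.63, adjusted p from 0.0581 to 0.13), and the call was also lost with the root score as a covariate (-0.92, adjusted p = 0.238). Against WT they were WT replicates 1 and 3 and hy5 pif457 replicates 1 and 3 at 8 h (-1.87 to -1.62, adjusted p from 0.0594 to 0.105). The response difference from WT, -3.17 ± 0.79, was kept with each library left out (edgeR adjusted p = 0.00988). For XTH18 this difference was -1.97 ± 0.74 and did not pass (edgeR adjusted p = 0.0722). It was called with DESeq2 (-1.93, adjusted p = 0.0448), with the root score as a covariate (-2.01, adjusted p = 0.00539) and with the groups fitted alone (-1.92, adjusted p = 0.00125). XTH18 in hy5 pif457 held 8.65, 10.11 and 14.15 CPM at 0 h and 4.32, 4.70 and 3.32 CPM at 8 h.

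In pif457 the related XTH17, XTH18 and XTH19 were spread widely at 8 h. The 3 libraries held 3.18, 7.42 and 21.1 CPM of XTH17, 2.81, 7.34 and 19.6 CPM of XTH18, and 2.08, 14.3 and 41.3 CPM of XTH19. In each gene replicate 1 was the lowest and replicate 3 the highest, and the libraries overlapped with those of 0 h. The same libraries had root scores of 0.02, 2.03 and 3.38, in the same order. The responses called in pif457 at 8 h were 2.04 ± 0.48 for XTH17 (edgeR adjusted p = 0.00897), 2.16 ± 0.54 for XTH18 (adjusted p = 0.0137) and 2.67 ± 0.58 for XTH19 (adjusted p = 0.00478). Without replicate 3 at 8 h they were 1.05 for XTH17 (adjusted p = 0.223), 1.196 for XTH18 (adjusted p = 0.244) and 1.44 for XTH19 (adjusted p = 0.142), and those of XTH17 (1.70) and XTH18 (1.69) were also lost without replicate 2 at 0 h. With the root score as a covariate they were 1.21 (adjusted p = 0.0667), 1.23 (adjusted p = 0.0611) and 1.44 (adjusted p = 0.0733). A fit of the pif457 groups alone called none of the 5 genes called at 8 h (adjusted p from 0.314 to 0.47). XTH17 against WT at 8 h was -1.11 ± 0.44 in pif457 (edgeR adjusted p = 0.105). It was called without pif457 replicate 3 (-2.11, adjusted p = 0.00322) or with the root score as a covariate (-2.67, adjusted p = 0.000165).

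**Figure D2:**
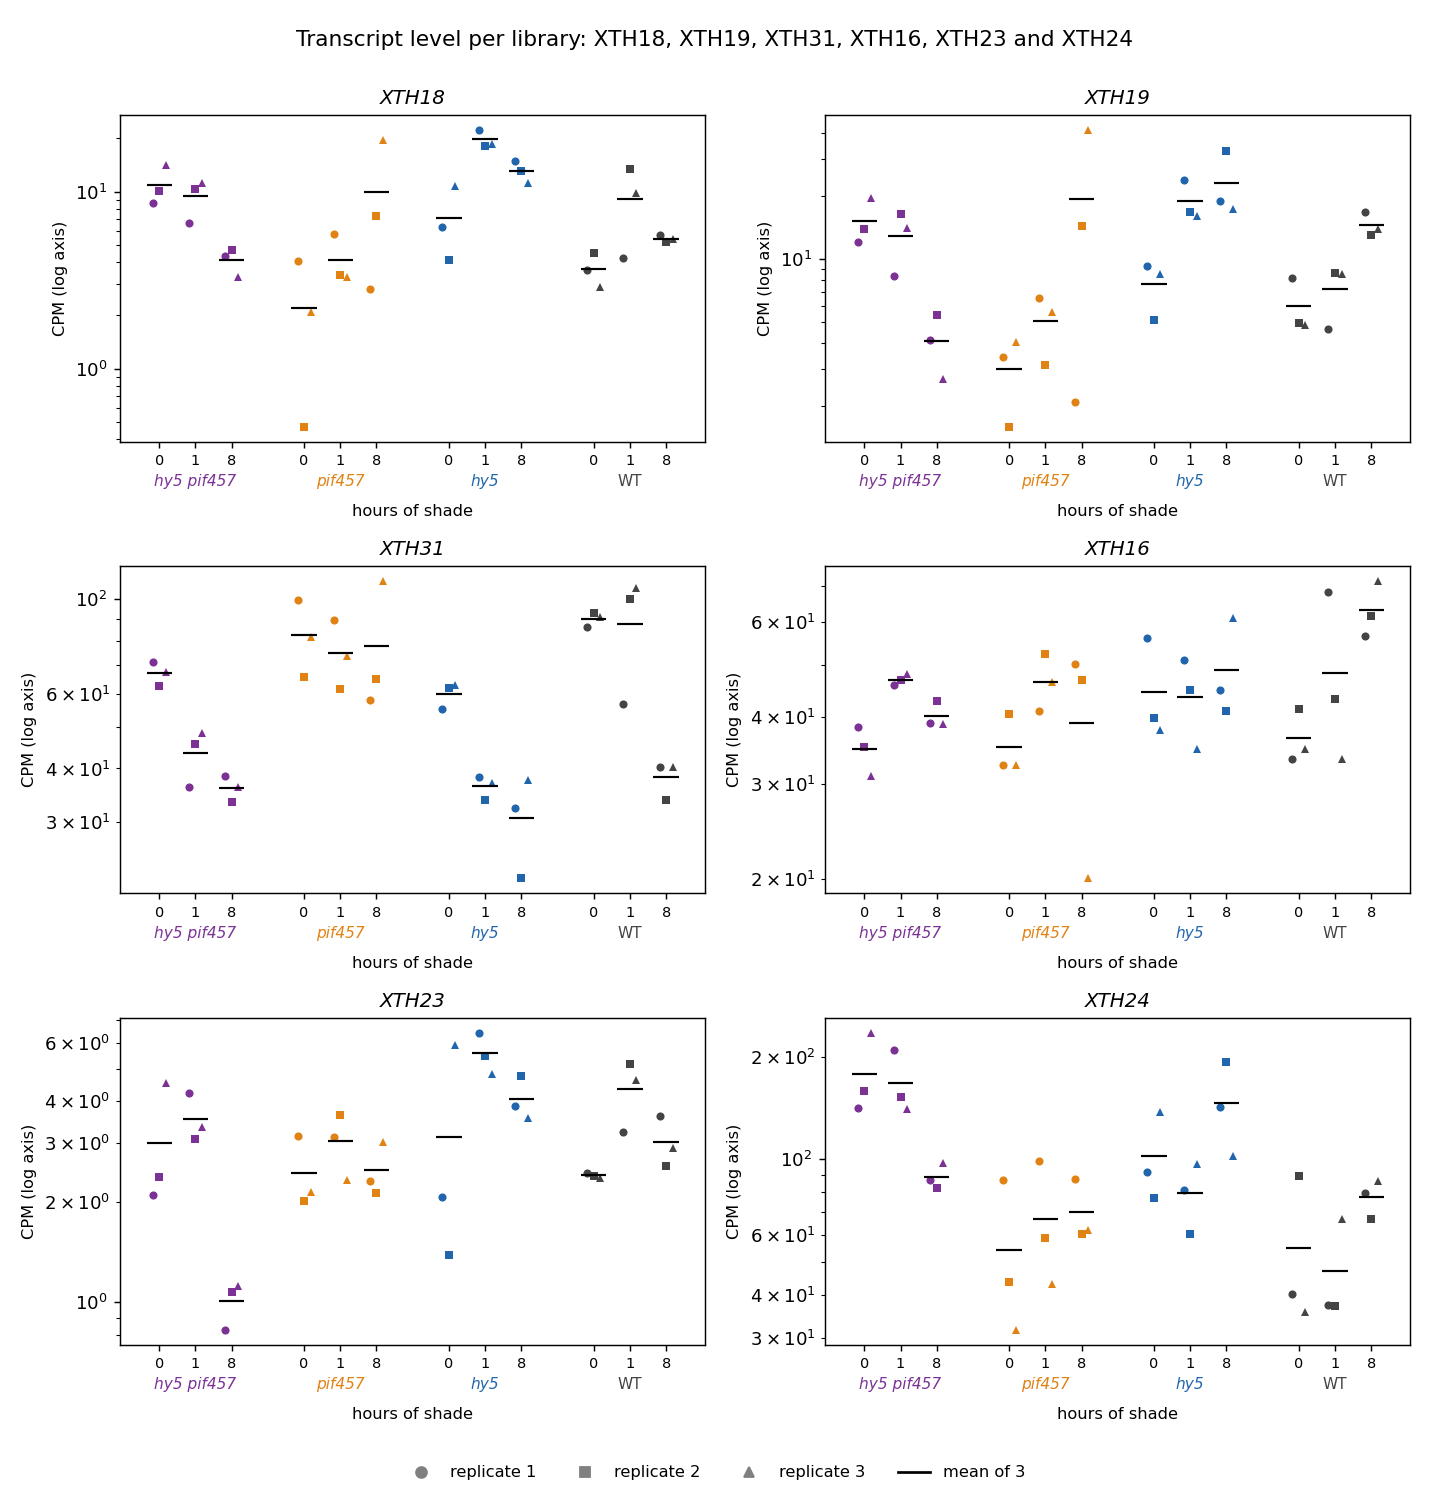
CPM on a log axis in each library of XTH18, XTH19, XTH31, XTH16, XTH23 and XTH24, by genotype and hours of shade (points: replicates; lines: means of 3). At 8 h in pif457 XTH19 runs from 2.08 to 41.3 CPM, whereas in hy5 pif457 it lies between 2.68 and 5.45 CPM.

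XTH31 (AT3G44990, chr3:16446935-16448844), an enzyme with hydrolase activity known from Arabidopsis roots, was the most abundant of the 10 per length in WT at 0 h, at 64.5 CPM per kilobase, and the only one called lower in WT after shade than at 0 h. Its WT libraries held 86.1, 92.8 and 90.8 CPM at 0 h, 56.7, 100.2 and 106 CPM at 1 h, and 40.3, 33.75 and 40.2 CPM at 8 h. The 8 h libraries of WT were below all earlier ones (-1.24 ± 0.22 against 0 h, edgeR adjusted p = 0.000189, and -1.20 ± 0.22 against 1 h, adjusted p = 0.000473). In hy5 it held 55.3, 61.9 and 62.9 CPM at 0 h, 38.3, 33.8 and 37.0 CPM at 1 h, and 32.25, 22.1 and 37.6 CPM at 8 h. The hy5 levels at 1 h were thus already below those at 0 h (-0.72 ± 0.22, edgeR adjusted p = 0.0399), a call lost without hy5 replicate 1 or 2 at 0 h or any 1 library at 1 h (-0.78 to -0.67, adjusted p from 0.0543 to 0.129). Against WT at 1 h hy5 was lower by -1.27 ± 0.22 (edgeR adjusted p = 0.000773), the only 1 of 10 genes called there (4.27% of all genes), with adjusted p = 0.0567 when the groups were fitted alone. No gene of the 10 was called between hy5 and WT at 8 h (2.61% of all genes).

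In hy5 pif457 XTH31 held 71.3, 62.6 and 67.4 CPM at 0 h, 36.1, 45.6 and 48.5 CPM at 1 h, and 38.4, 33.4 and 36.1 CPM at 8 h. Both shade times were below 0 h there, with -0.90 ± 0.22 at 8 h (edgeR adjusted p = 0.0105; -0.59 and adjusted p = 0.063 with the root score as a covariate), and at 1 h it was lower than in WT (-1.01 ± 0.22, adjusted p = 0.00262). In pif457 no change was called (-0.08 ± 0.21 at 8 h, edgeR adjusted p = 0.828), with 99.8, 65.7 and 81.7 CPM at 0 h, 89.2, 61.6 and 73.7 CPM at 1 h, and 57.85, 64.8 and 110.4 CPM at 8 h. All 8 h libraries of pif457 were above those of WT (1.03 ± 0.22, edgeR adjusted p = 0.00278). This call was lost without pif457 replicate 3 at 8 h (0.69, adjusted p = 0.0592), and with the root score as a covariate (0.53, adjusted p = 0.233) or when the groups were fitted alone (1.02, adjusted p = 0.16). The response differed from that of WT by 1.15 ± 0.30 (edgeR adjusted p = 0.0348). That call was lost without any 1 of 6 libraries: WT replicates 1 and 3 at 0 h, WT replicates 2 and 3 at 8 h, pif457 replicate 2 at 0 h or pif457 replicate 3 at 8 h (0.81 to 1.18, adjusted p from 0.0617 to 0.188). With the root score as a covariate it was 0.57 (adjusted p = 0.471), and adjusted p was 0.205 with the groups fitted alone. At 1 h only XTH22 differed between pif457 and WT among the 10 (1 of 10, 2.57% of all genes).

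The hy5 pif457 seedlings were also compared with each of hy5 and pif457. Against hy5, 7 of 10 genes were called in hy5 pif457 at 8 h, all lower (23.7% of all genes), namely XTH15, XTH17, XTH18, XTH19, XTH22, XTH23 and XTH33. For XTH15 the difference was -3.82 ± 0.36 (edgeR adjusted p = 3.15e-08), for XTH33 -3.72 ± 0.58 (adjusted p = 7.16e-05) and for XTH23 -2.01 ± 0.37 (adjusted p = 0.000447). Without hy5 replicate 2 at 8 h the differences were -2.89 for XTH15 and -2.87 for XTH33, both still called. XTH18, at -1.67 ± 0.52 (edgeR adjusted p = 0.023), was lost without hy5 replicate 2 or hy5 pif457 replicate 1 or 3 at 8 h (-1.69 to -1.52, adjusted p from 0.0642 to 0.0883). At 1 h 2 of 10 were called, both lower than in hy5 (3.8% of all genes), XTH22 and XTH33. XTH33, at -1.88 ± 0.53 (edgeR adjusted p = 0.0385), was lost without hy5 replicate 1 or 3 or any 1 hy5 pif457 library at 1 h (-2.03 to -1.67, adjusted p from 0.0827 to 0.229). At 0 h none of the 10 differed from hy5 (0.677% of all genes).

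Against pif457, 4 of 10 genes were called in hy5 pif457 at 0 h, all higher (6.85% of all genes). These were XTH24 (1.72 ± 0.37, edgeR adjusted p = 0.00552) and the close relatives XTH17 (2.07 ± 0.48), XTH18 (2.31 ± 0.54, adjusted p = 0.0107) and XTH19 (2.33 ± 0.57, adjusted p = 0.014). The root score was 2.12, 2.54 and 2.93 in hy5 pif457 at 0 h, against 1.40, -1.46 and 1.12 in pif457. With this score as a covariate the XTH17, XTH18 and XTH19 differences were 1.18 (adjusted p = 0.088), 1.285 (adjusted p = 0.0576) and 1.17 (adjusted p = 0.181). They were also lost without pif457 replicate 2 or hy5 pif457 replicate 3 at 0 h (for XTH18 1.83 and 2.04, for XTH19 2.03 and 2.07), as was XTH24 without pif457 replicate 3 (1.41) or hy5 pif457 replicate 3 (1.43). With the groups fitted alone XTH18 (adjusted p = 0.081) and XTH24 (adjusted p = 0.0567) missed the threshold. At 1 h 3 of 10 were called (8.04% of all genes), XTH22 and XTH24 higher and XTH31 lower, and XTH22 was lost with any of 6 libraries left out, XTH24 with any of 5 and XTH31 with any of 3 (adjusted p from 0.052 to 0.219). XTH22, at 0.97 ± 0.30 (edgeR adjusted p = 0.0421), also missed it with RLE size factors, with a CPM filter, without the filter on low counts and without rRNA and organelle genes (adjusted p from 0.0509 to 0.0683). At 8 h 4 of 10 were called, all lower (26.5% of all genes): XTH19, XTH23, XTH31 and XTH33. XTH31 (-1.11 ± 0.22, edgeR adjusted p = 0.00111) was the one of these kept with each library left out. With the groups fitted alone XTH19, XTH31 and XTH33 missed the threshold (adjusted p from 0.0548 to 0.163). Without pif457 replicate 3 at 8 h the other 3 were -1.001 for XTH19, -1.13 for XTH23 and -0.72 for XTH33 (adjusted p = 0.166, 0.0505 and 0.392). XTH23 was also lost without hy5 pif457 replicate 1 (-1.16), and XTH33 without its replicate 2 (-1.59) or 3 (-1.47), at 8 h, or with the root score as a covariate (-1.05, adjusted p = 0.141). Between 8 h and 1 h, 2 of 10 were called in hy5 pif457, both lower at 8 h (3.66% of all genes), XTH22 and XTH23 (-1.82 ± 0.37, edgeR adjusted p = 0.00612; -1.67 without replicate 1 at 8 h, adjusted p = 0.0542), and none in pif457 (2.51%).

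Within groups, the 4 root-typical genes were higher in libraries with more root marker RNA. Root score differed within groups as well as between them, from -2.46 in WT replicate 2 at 8 h to 3.38 in pif457 replicate 3 at 8 h. In the fit with group and root score together, the log2 level rose per unit of score by 0.46 ± 0.09 for XTH17, 0.58 ± 0.09 for XTH18, 0.58 ± 0.11 for XTH19 and 0.19 ± 0.04 for XTH31, all called (edgeR adjusted p from 1.85e-05 to 0.00184). Of the 6 genes of shoot or several tissues XTH33 had a positive slope (0.44 ± 0.12, edgeR adjusted p = 0.00695) and XTH16 a negative one (-0.18 ± 0.05, adjusted p = 0.0154). The slope of XTH33 was close to that of the root-typical XTH17. XTH15, XTH22, XTH23 and XTH24 were not called, with slopes from -0.13 to 0.19. The slope of XTH31 was no steeper than that of XTH23 (0.19 ± 0.08, edgeR adjusted p = 0.0803) and lay below that of XTH33. For XTH31 the size of the slope thus did not set it apart from the genes of shoot or several tissues. In all, 6 of 10 slopes were called, against 23.9% of all genes.

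Root scores in WT were 1.14, -2.46 and -0.48 at 8 h, against 1.17, 1.15 and 0.46 at 0 h. Held at the same score, the WT change at 8 h was larger for XTH17 (3.15 ± 0.365), XTH18 (1.58 ± 0.38), XTH19 (2.30 ± 0.43) and XTH33 (3.81 ± 0.51), all called (edgeR adjusted p from 4.81e-07 to 0.00346). XTH18 and XTH19 were not called in the fit by group. XTH15 gave 4.69 ± 0.37 and XTH31 -0.95 ± 0.18, both still called, whereas XTH16 gave 0.52 ± 0.22 (edgeR adjusted p = 0.0805). In hy5 the score was 3.07, 2.79 and 2.85 at 1 h, against 1.32, 0.59 and 1.83 at 0 h, and the change of XTH17 at 1 h held at the same score was 0.98 ± 0.34 (edgeR adjusted p = 0.113). The 5 response differences called in hy5 pif457 at 8 h were of similar size and called with the score in the fit, from -4.21 for XTH33 to -1.85 for XTH23.

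**Figure D3:**
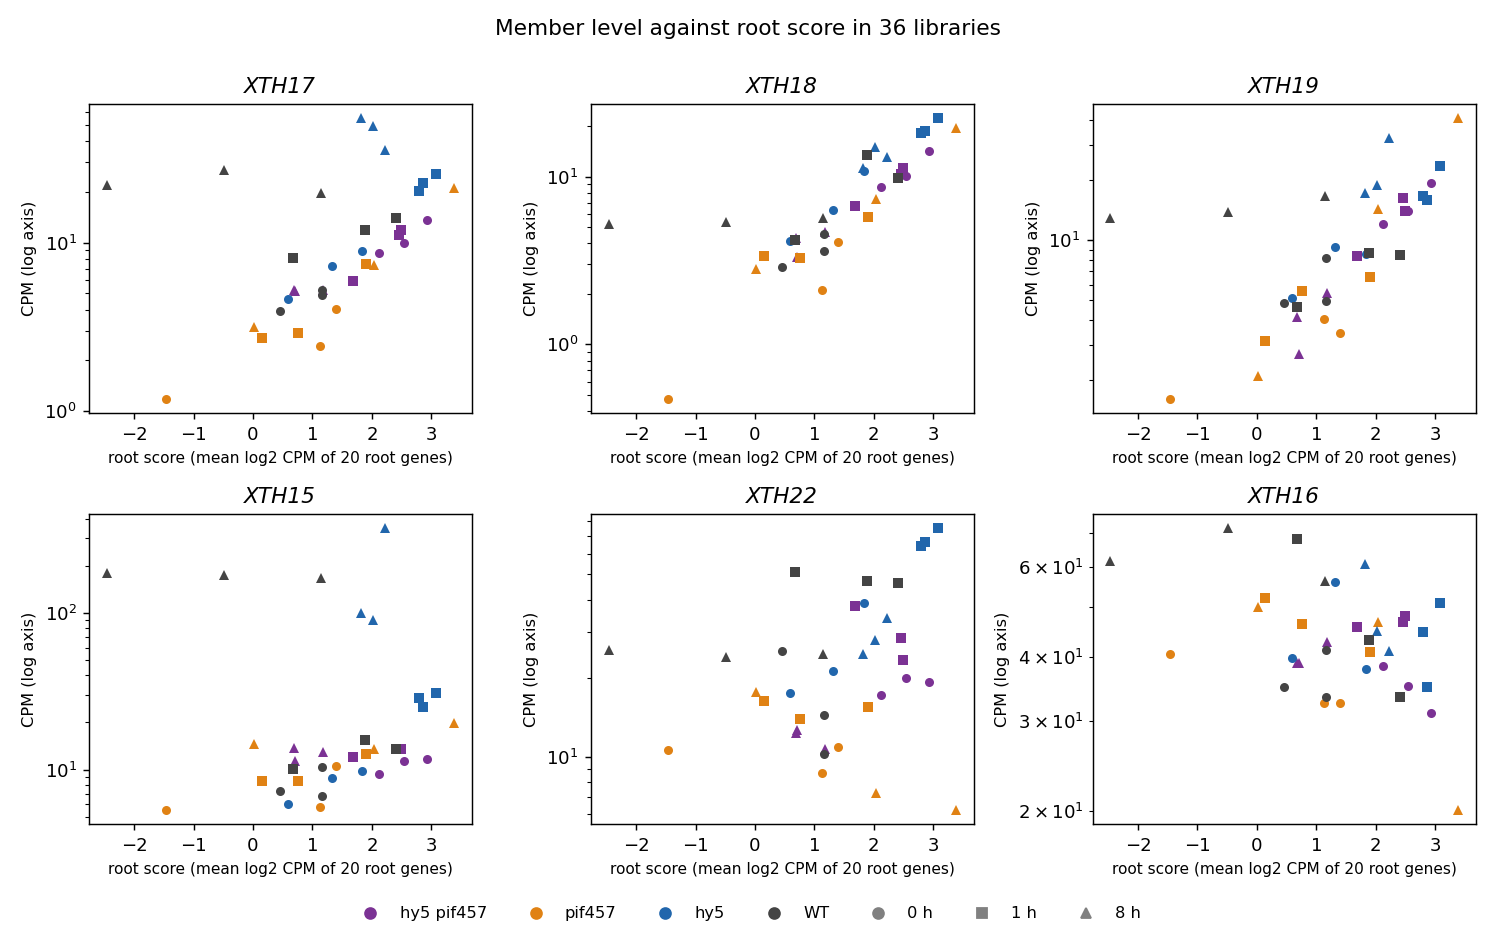
CPM on a log axis against root score (mean log2 CPM of 20 root markers) in each of 36 libraries, coloured by genotype and shaped by hours of shade. XTH17, XTH18 and XTH19 climb with the score, while XTH15 is set apart by the 8 h libraries of hy5 and WT at any score.

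Across the 12 group means of log2 CPM, the genes whose pattern was most like each of the 10 were sought outside the family among 15358 genes. For XTH15 these were AGP9, an arabinogalactan protein of the cell wall (r = 0.99), and PHYA, the photoreceptor of far-red light (r = 0.975). For XTH17 the first was AGP4, another arabinogalactan protein (r = 0.961), and for XTH33 AT1G04970 (r = 0.963) was followed by EXLA2, an expansin-like gene (r = 0.959). The first for XTH22 was AT3G17090 (r = 0.972), for XTH31 AT1G74750 (r = 0.98), for XTH24 MO1 (r = 0.942), for XTH18 AT1G02816 (r = 0.96), for XTH19 AT3G57340 (r = 0.955), for XTH23 SDH4 (r = 0.954) and for XTH16 AT5G28040 (r = 0.909). Among the 10 themselves the closest were XTH17 and XTH33 (r = 0.939), XTH17 and XTH19 (r = 0.91), and XTH18 and XTH19 (r = 0.883). XTH31 correlated negatively with the other root-typical genes, XTH17 (r = -0.691), XTH19 (r = -0.554) and XTH18 (r = -0.493). These are Pearson correlations over 12 groups that share libraries, scaling and root content, given as a description.

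Of the 23 other genes of the family, 19 were tested. In WT at 8 h 3 of them rose, namely XTH8 (1.28 ± 0.13), XTH4 (1.34 ± 0.21) and XTH6 (0.89 ± 0.28), and XTH28 fell (-0.31 ± 0.10), with a median of -0.22 over the 19 genes against -0.03 for all genes. These 4 of 19 compare with 19.2% of all genes called in WT at 8 h. XTH4 averaged 663 CPM in WT at 8 h, against 261 CPM at 0 h (edgeR adjusted p = 4.51e-05). Against WT at 8 h XTH4 and XTH8 were lower in hy5 pif457 (-0.89 ± 0.21 and -0.89 ± 0.13) and in pif457 (-1.31 ± 0.21 and -1.27 ± 0.13). XTH32 was lower than in WT at 8 h in hy5 pif457 (-1.24 ± 0.16), in pif457 (-0.73 ± 0.16) and in hy5 (-0.83 ± 0.16). In WT at 1 h XTH32 was the one gene called of the 19 (5.2% of all genes), and it fell (-0.72 ± 0.16, edgeR adjusted p = 0.00511). The root-specific XTH12, XTH13, XTH14 and XTH26 were higher in pif457 than in WT at 8 h by 3.46 to 3.94, although the libraries overlapped, and XTH13, XTH14 and XTH26 were chosen after their values were seen. Their slopes on the root score, with that of XTH21, ran from 1.33 to 1.47.

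Some genes that make or trim xyloglucan also rose in WT. Of 14 synthesis genes 4 rose at 1 h (5.2% of all genes called in either direction) and 8 rose at 8 h (19.2%), with none lower and the others not called. Their median log2 fold change was 0.185 at 1 h and 0.26 at 8 h, against 0.02 and -0.03 for all genes. CSLC4, the main glucan synthase of the xyloglucan backbone, rose by 1.02 ± 0.17 at 1 h (edgeR adjusted p = 0.000201) and 1.03 ± 0.17 at 8 h (adjusted p = 7.97e-05). XXT1, a xylosyltransferase, rose by 0.36 ± 0.10 at 1 h and 0.50 ± 0.10 at 8 h, and XLT2, a galactosyltransferase, by 0.68 ± 0.19 at 1 h. Of the 3 trimming genes 1 was called at 1 h in WT, and all 3 rose at 8 h: XYL1, an alpha-xylosidase (1.33 ± 0.13), BGAL10, a beta-galactosidase (0.94 ± 0.15), and AXY8, an alpha-fucosidase (0.45 ± 0.09). Against WT at 8 h 7 synthesis genes were lower in hy5 pif457 (18.7% of all genes called), with XLT2 at -1.45 ± 0.19 and CSLC4 at -0.94 ± 0.17, and 3 were lower and 1 higher in pif457 (11.3%), with XLT2 at -0.94 ± 0.19 and CSLC12 at 1.00 ± 0.24.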

How the data were processed

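RNA-seq of 36 libraries (12 groups of 3) was deposited as 1 table of 32833 genes. Per the submitters' processing notes the authors used STAR 2.5.3a, RSEM 1.3.0 and TAIR10. The deposited expected counts are whole numbers, so no rounding was needed. Annotation release and strand setting: not given in the sources used here. Libraries held 30846115 to 58025421 counts, so counting error is small for all but the scarcest of the 10 genes. Every column was mapped to a sample. No replicate pair looked like copies of 1 library (lowest chi-square per degree of freedom 3.92).

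Counts were fitted in edgeR 4.0.16 (R 4.3.3, limma 3.58.1) with TMM scaling and 1 mean per group over all 36 libraries. The filter was filterByExpr (minimum count 10, total 15), which left 21562 genes, and p-values were adjusted over these by Benjamini-Hochberg with a threshold of 0.05. Log2 CPM used a prior count of 2. The root score is the mean log2 CPM of 20 root markers, none of them an XTH gene. Alternatives were DESeq2 1.42.0, RLE size factors, 2 other filters, a replicate block, the root score as covariate, omission of rRNA and organelle genes, the compared groups alone, and each library left out. Leaving out 12 libraries rich in rRNA was chosen after seeing the data. The scripts were tested on simulated data. All 10 genes were tested in each comparison, values are given mainly for those called, and of each other list up to 4 called genes with the smallest adjusted p. The 10 genes and the lists were chosen with earlier results of these data known. Positions and promoters came from RefSeq TAIR10.1 with Biopython 1.88, and plots were made in matplotlib 3.10.9 (Python 3.11.15, pandas 2.3.3, numpy 2.4.6). Nothing in the labels says whether replicates were grown on separate days.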

Additional observations from a re-analysis of the deposited data

Results flagged for a closer look

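The results here stand out because the test of the difference between a mutant's 8 h shade response and that of WT passed the threshold (edgeR). In hy5 pif457 the difference was -4.18 for XTH15, -4.18 for XTH33, -3.34 for XTH17, -3.17 for XTH19 and -1.91 for XTH23, on the log2 scale. In pif457 it was -3.28 for XTH15 and 1.15 for XTH31. The WT libraries are shared by both mutant comparisons, and all hy5 pif457 libraries and the pif457 libraries at 8 h are also those with a high share of ribosomal RNA counts. In hy5 pif457 that share was high at every time, and in pif457 only at 8 h. It cannot be told apart from the 8 h differences of either mutant from WT, nor from the 8 h response within pif457.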

How the results depend on the processing

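Of 330 tests of the 10 genes, 72 were called, and 37 of these were kept with each library left out in turn. Kept calls numbered 72 with DESeq2 (18 gained), 71 with RLE size factors, 69 without a low-count filter, 71 with a CPM filter, 71 without rRNA and organelle genes, 55 with the root score as covariate (17 gained) and 56 with the compared groups alone (41 gained). The share of all genes called under each alternative setting is not given here. Whether a move is particular to the 10 genes therefore cannot be told. Counts of called genes that moved by more than 1.5 times were these, and the cause was not tested. With groups alone, calls at 1 h in the 3 mutants were 9 instead of 5, between 8 h and 1 h 14 instead of 7, against WT at 0 h 6 instead of 1, and in response differences 11 instead of 7. With the root score as covariate, calls at 8 h in the mutants were 4 instead of 12, between 8 h and 1 h 11, and against WT at 0 h 3. DESeq2 also gave 3 against WT at 0 h. With each library left out, the counts ran from 1 to 2 for WT at 1 h, 4 to 5 for WT at 8 h, 3 to 7 for mutants at 1 h, 9 to 14 for mutants at 8 h, 4 to 12 between 8 h and 1 h, 0 to 2, 4 to 5 and 7 to 11 against WT at 0, 1 and 8 h, 6 to 11 for response differences and 15 to 25 for hy5 pif457 against hy5 or pif457. The response differences numbered 11, and calls between 8 h and 1 h 12, without pif457 replicate 1 at 8 h; the second count was 4 without hy5 pif457 replicate 1 at 8 h. The one reversed value was XTH15 in hy5 against WT at 8 h, -0.91 without hy5 replicate 2 and 0.338 without hy5 replicate 1 at the ends of its range. With the replicate number as a block all 72 calls were kept and 1 was gained, XTH16 in pif457 against WT at 8 h (-0.74, edgeR adjusted p = 0.049). The numbers do not pair the libraries: over 198 pairs with the same number the correlation of deviations had a median of -0.01 (-0.67 to 0.73), and 13 of 36 libraries correlated best with their own number.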
